A study of Mus musculus with 12 samples.

Results

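The genes described here are 9 members of the CC chemokine system that draw monocytes out of the blood: the ligands Ccl2, Ccl3, Ccl4, Ccl6, Ccl7, Ccl8 and Ccl9 and the receptors Ccr1 and Ccr2. They were taken as a list of names, chosen with earlier results of these data known. A gene counted as measured when the array held a transcript cluster that named that gene and no other. Such a cluster is a set of probes summarised to 1 value. All 9 of 9 were measured, each by 1 cluster, among 19752 genes in all. The RNA was that of the whole tibialis anterior (TA), a muscle of the shin, taken from 8-week-old C57BL/6 mice. The muscle had been injured on day 0 with cardiotoxin, a venom component that destroys the fibres. Every mouse received diphtheria toxin from day 0 on, together with either amphiregulin (AREG), a ligand of the receptor EGFR, or the vehicle, phosphate-buffered saline (PBS).

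There were 12 arrays in 4 groups of 3. At day 4 the mice were Foxp3-DTR-, so they lacked the diphtheria toxin receptor, and received toxin with AREG or toxin with PBS. At day 8 they were Foxp3-DTR+, which means that the receptor is placed under the control of Foxp3, the transcription factor of regulatory T (Treg) cells, and that the toxin is meant to kill those cells. They too received toxin with AREG or toxin with PBS. Day and genotype therefore changed together, and a difference between the days cannot be told apart from a difference between the genotypes. There were no uninjured and no toxin-free mice among the groups. The labels do not say that the arrays of a group came from separate animals, so the p-values measure the spread between arrays.

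The median intensity of an array lay between 134 and 143. The interquartile range of log2 intensity was 2.19 on AREG replicate 1 of day 4, narrower than on the other 11 arrays (2.37 to 2.72). The 10 muscle fibre genes used as a tissue check, such as Ckm and Acta1, were bright on every array, with no gene below an intensity of 4828. The genotypes rest on the labels, since they could not be read from Foxp3 itself: its log2 intensity was 6.57 ± 0.09 (SD, n = 3) in PBS muscle at day 4 and 6.55 ± 0.09 at day 8, a difference of -0.02 ± 0.11 (SE; limma, adjusted p = 0.955). Values below are log2 intensities, so that a difference of 1 is a 2-fold change. They are not set against each other between genes, because each gene has its own probes.

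CC chemokines are small secreted proteins that bind receptors coupled to inhibitory G proteins and direct the movement of leukocytes. Ccl2 and Ccl7 act on Ccr2, which inflammatory monocytes need to leave the bone marrow and to enter injured tissue, and mice without Ccr2 regenerate muscle poorly. Ccl3, Ccl6 and Ccl9 act on Ccr1, which is found on monocytes, macrophages and neutrophils. After injury, the monocytes that enter become the macrophages that clear dead fibres and later support the fusion of new ones, and macrophages themselves make many of these ligands.

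The genes lie in few places. In the order of the RefSeq table, Ccl2, Ccl7, Ccl11, Ccl12, Ccl8 and Ccl1 follow each other on chromosome 11, and Ccl5, Ccl9, Ccl6, Ccl3 and Ccl4 form another run on the same chromosome, while Ccr1, Ccr1l1, Ccr3 and Ccr2 are neighbours on chromosome 9. RefSeq promoter sequences of the GRCm38.p6 assembly, from 250 bases before to 50 bases after the annotated start, were at hand for 6 of the 9 members: Ccl3, Ccl6, Ccl8, Ccl9, Ccr1 and Ccr2. Those of Ccl6 (chr11:83593038-83593337, minus strand) and Ccl9 (chr11:83578587-83578886, minus strand) are printed because these neighbours had the highest correlation of any 2 members over the 12 arrays, by a small margin that did not last once group means were removed. Capitals mark the stretch in which they aligned, 74 columns with 58 identical bases (78.4%). Among the 15 pairs of promoters this local alignment scored 38, against 9 to 12 for the other 14. The promoter of Ccl8 (chr11:82114935-82115234, plus strand) is printed because Ccl8 differed most between the days, and capitals mark TATAAA, 32 bases before the start.
Ccl6: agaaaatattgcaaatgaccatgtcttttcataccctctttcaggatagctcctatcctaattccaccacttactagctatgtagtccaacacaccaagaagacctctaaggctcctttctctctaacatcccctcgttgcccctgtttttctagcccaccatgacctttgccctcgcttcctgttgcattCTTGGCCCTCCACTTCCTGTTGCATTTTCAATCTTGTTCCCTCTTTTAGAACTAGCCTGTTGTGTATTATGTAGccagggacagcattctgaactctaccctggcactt
Ccl9: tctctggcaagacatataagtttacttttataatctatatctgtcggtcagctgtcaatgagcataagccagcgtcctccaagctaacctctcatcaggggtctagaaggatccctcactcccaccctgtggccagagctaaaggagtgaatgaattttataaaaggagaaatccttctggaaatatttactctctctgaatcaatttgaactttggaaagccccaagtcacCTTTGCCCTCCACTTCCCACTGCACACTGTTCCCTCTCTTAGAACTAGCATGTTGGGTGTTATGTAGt
Ccl8: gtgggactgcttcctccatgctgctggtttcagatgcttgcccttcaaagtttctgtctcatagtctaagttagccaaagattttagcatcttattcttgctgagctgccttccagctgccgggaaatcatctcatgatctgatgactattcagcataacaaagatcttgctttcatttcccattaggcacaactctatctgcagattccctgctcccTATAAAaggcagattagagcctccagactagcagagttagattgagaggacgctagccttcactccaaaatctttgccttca

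Short motifs were searched on both strands of the 6 promoters and of all 32841 in the RefSeq table. TATAAA was in 13.6% of all promoters and in those of Ccl8 and Ccl9. The AP-1 letters TGANTCA were in 7.81% and in that of Ccl9. GAGGAA, the core bound by the myeloid factor PU.1, was in 28.3% of all promoters and in those of Ccl3, Ccl8 and Ccr1. The C/EBP letters TTNNGNAA were in 40.7% and in those of Ccl3, Ccl9, Ccr1 and Ccr2, overlapping GAGGAA in Ccr1. TTCNNNGAA, read by STAT factors, was in 8.3% of all promoters and in none of the 6. The Ccl6 window held none of the letters searched. These matches are descriptions of the windows and are no evidence that a factor binds there.

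The first comparison asks how AREG changed the chemokines at day 4, with Treg cells present. AREG-treated muscle had less of 6 of the 9 members: the ligands Ccl2, Ccl3, Ccl6, Ccl7 and Ccl9 and the receptor Ccr1 fell, by 1.74- to 3.19-fold. Ccl8 and Ccr2 lay lower on every AREG array than on any PBS array but did not pass the test, and Ccl4 hardly differed. The test was limma across all 19752 genes with Benjamini-Hochberg adjustment, called at an adjusted p under 0.05, and it called 2.11% of all genes lower and 2.9% in either direction. All 9 estimates were below 0, as were 40.9% of all genes, and the median of the members was -0.94 against 0.04 over all genes. Because the list was chosen with earlier results of these data known, such shares, here and below, describe the members and do not test them.

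Ccl2 and Ccl7 are ligands of Ccr2, and they had the highest adjusted p-values of the called members. Ccl2 had log2 intensities of 7.68, 7.96 and 8.24 in PBS muscle and 7.27, 6.94 and 7.28 under AREG. Ccl7 had 7.83, 8.09 and 8.59 in PBS muscle and 7.44, 7.09 and 7.34 under AREG. The AREG arrays lay below all PBS arrays for both genes, with the smallest gap between PBS replicate 1 and AREG replicate 1 or 3. The difference was -0.80 ± 0.20 (SE, n = 3 against 3) for Ccl2 (limma, adjusted p = 0.0449) and -0.88 ± 0.23 for Ccl7 (adjusted p = 0.0498). Both stood close to the threshold: with the replicate number as a block, Ccl2 stayed just inside it (adjusted p = 0.05 after rounding) and Ccl7 did not pass (adjusted p = 0.0524), among 914 genes called in place of 573.

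Ccl8, which in mice acts on Ccr8 and lies in the same gene cluster, had log2 intensities of 7.93, 8.46 and 8.01 in PBS muscle and 6.40, 7.07 and 6.91 under AREG. Every AREG array was lower than every PBS array. The difference of -1.34 ± 0.43 was 2.54-fold and lower than in all but 0.142% of genes, yet its adjusted p was 0.107 (limma). The spread used by the fit is that of all 4 groups, and it included a wide spread of Ccl8 at day 8. A fit of the 6 arrays of day 4 alone called Ccl8 lower, with an adjusted p of 0.00663.

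Ccl3 and Ccl4 are neighbouring genes whose proteins are the macrophage inflammatory proteins 1-alpha and 1-beta. Ccl3 had log2 intensities of 9.23, 8.76 and 9.67 in PBS muscle and 7.92, 7.34 and 7.39 under AREG. The groups were far apart, and the difference of -1.67 ± 0.37 (3.19-fold; limma, adjusted p = 0.0324) was the largest of any member and was below that of all but 0.0152% of genes. Ccl4 had 6.10, 5.98 and 6.06 in PBS muscle and 6.06, 5.83 and 5.97 under AREG. These groups overlapped, and the difference was -0.09 ± 0.12 with a 95% interval from -0.34 to 0.16 (adjusted p = 0.801). The mean intensity of the Ccl4 cluster was 62.2 to 68.5 in the 4 groups, below the median intensity of every array, and at such a level RMA values can understate differences.

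Ccl6 and Ccl9 are rodent ligands of Ccr1 and are made by macrophages. Ccl6 had log2 intensities of 9.74, 9.79 and 10.01 in PBS muscle and 8.39, 9.03 and 8.53 under AREG. Ccl9 had 9.17, 8.87 and 9.42 in PBS muscle and 8.19, 8.19 and 8.01 under AREG. For both genes the groups were separated by at least as much as the AREG arrays differed among themselves. Ccl6 fell by 1.20 ± 0.24 (2.30-fold; limma, adjusted p = 0.0226) and Ccl9 fell by 1.02 ± 0.20 (2.03-fold; adjusted p = 0.0236).

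Of the receptors, Ccr1 had log2 intensities of 5.74, 5.96 and 6.27 in PBS muscle and 5.20, 5.12 and 5.10 under AREG. The AREG arrays lay close together and below all PBS arrays, and the difference of -0.85 ± 0.15 (1.80-fold) had the smallest adjusted p of the members (limma, 0.0198). The Ccr1 cluster was dim, with mean intensities of 35.3 to 64.3 in the 4 groups, below the median intensity of every array. Over the alternative settings its day 4 estimate lay between -0.97 and -0.51. Ccr2, the receptor that marks inflammatory monocytes, had 8.73, 8.77 and 8.97 in PBS muscle and 7.22, 8.34 and 8.08 under AREG. The groups did not overlap, but AREG replicate 1 lay far below the other AREG arrays, and the difference of -0.94 ± 0.34 did not pass (adjusted p = 0.155). With the 6 arrays of day 4 alone, Ccr2 was called lower (adjusted p = 0.0421).

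**Figure D1:**
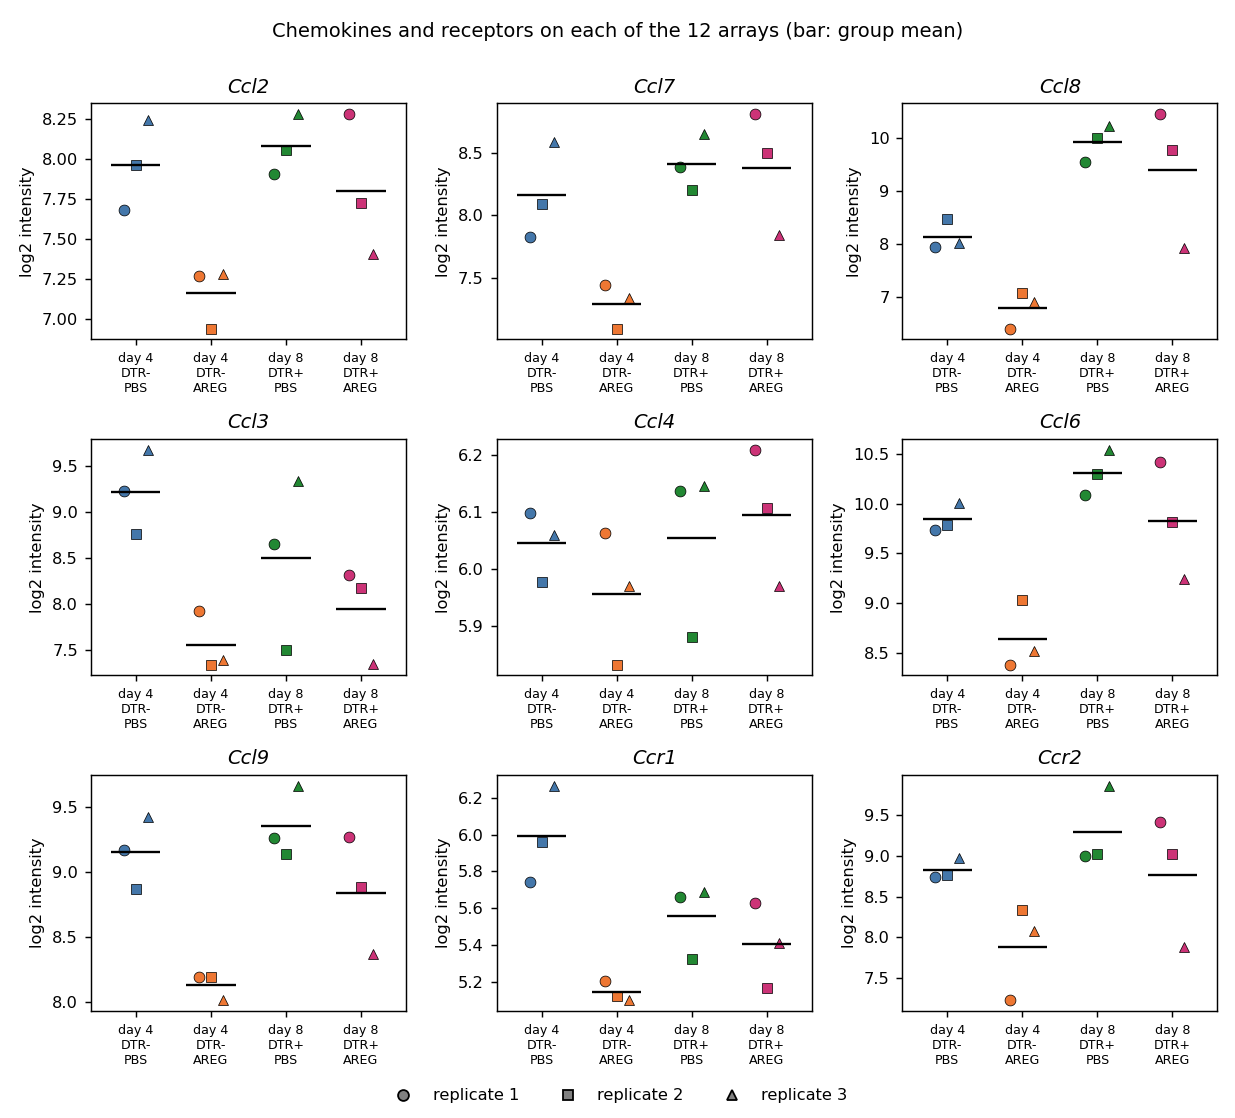
Log2 intensity (vertical axes) of the 9 members on each of the 12 arrays, in 1 panel per gene with the 4 groups along the horizontal axis. Circles, squares and triangles are replicates 1, 2 and 3 and bars are group means; at day 4 the AREG points of 8 members lie wholly below the PBS points, and at day 8 AREG replicate 3 is the lowest AREG point for 8 members.

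In this comparison 8 of the 9 members had AREG arrays that all lay below the PBS arrays, Ccl4 being the exception, against 12% of all genes. The count of 6 called members depended on processing choices and on single arrays. It was 4 with the trend and robust options of eBayes, 3 with a pseudocount of 32 and 5 with median centring, with cluster means or with the replicate block, 5 of the 7 members left by the median filter, and 8 with array quality weights or with the 6 arrays of day 4 alone. Of 21 alternatives, Ccl7 was called in 6, Ccl2 in 10, Ccl3 in 13, Ccl9 in 16 and Ccl6 in 18, and Ccr1 in 17 of 20. The count was 0 without AREG replicate 1, the array of narrow range, without AREG replicate 3 or without PBS replicate 2 of day 4, when 15, 9 and 9 genes were called over the whole array in place of 573. It was 3 without AREG replicate 2 and 2 without PBS replicate 1 or PBS replicate 3 of day 4. Leaving out AREG replicate 3 of day 8, which enters only through the shared spread, raised it to 8, with Ccl8 and Ccr2 added, among 1336 genes, and leaving out AREG replicate 1 of day 8 raised it to 7. It was 4, without Ccl2 and Ccl7, on leaving out AREG replicate 2 or any 1 PBS array of day 8. The estimates of all 9 members stayed below 0 in each of these fits.

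**Figure D2:**
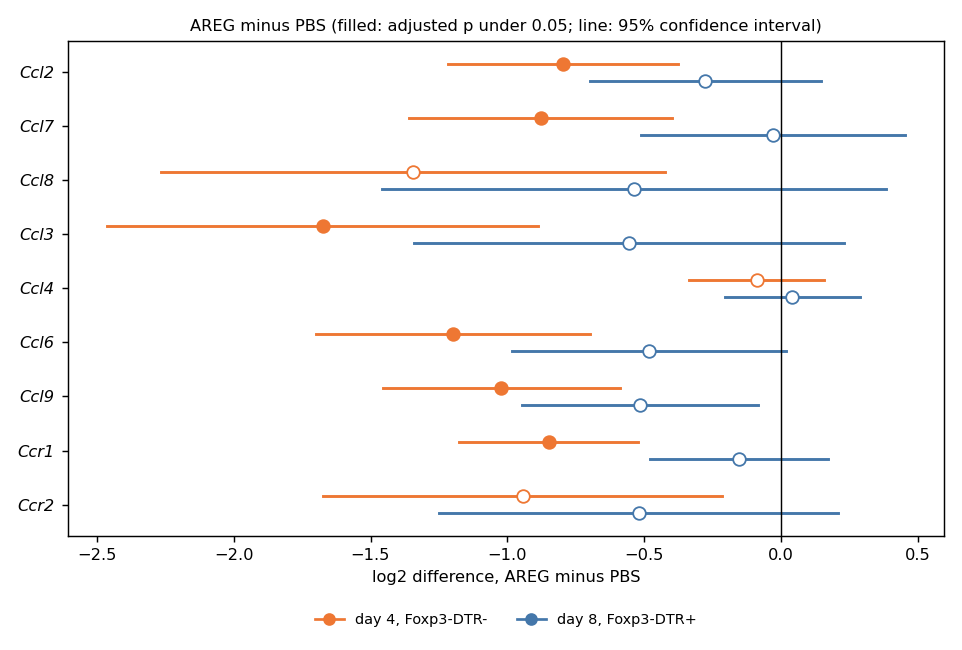
Log2 difference AREG minus PBS (horizontal axis) of the 9 members at day 4 in Foxp3-DTR- and at day 8 in Foxp3-DTR+ muscle, with 95% intervals of the fit and filled points where the adjusted p is under 0.05. The 6 filled points are all of day 4 and lie between -0.80 and -1.67, and the intervals of day 8 cross 0 for all but Ccl9.

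At day 8, with the toxin receptor present, no member passed the test of AREG against PBS. Of all genes 1 was called, 0.00506%. The members' estimates were below 0 for 8 of 9, as for 48.8% of all genes, with a median of -0.48 against 0.01 over all genes. The groups overlapped for each of the 9 members, while those of 14.2% of all genes did not. At an unadjusted p under 0.05, met by 7.62% of all genes, only Ccl9 counted, with a difference of -0.52 ± 0.20 (limma, unadjusted p = 0.0225, adjusted p = 0.640).

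Among the ligands of Ccr2, Ccl2 had log2 intensities of 7.91, 8.05 and 8.28 in PBS muscle and 8.28, 7.72 and 7.41 under AREG, a difference of -0.28 ± 0.20 (adjusted p = 0.778). Ccl7 had 8.39, 8.20 and 8.65 in PBS muscle and 8.81, 8.50 and 7.84 under AREG, a difference of -0.03 ± 0.23 (adjusted p = 0.983). In both genes AREG replicate 1 reached or passed the highest PBS array and AREG replicate 3 lay below the lowest. Ccl8 showed the same order and the widest spread, with 9.55, 10.00 and 10.21 in PBS muscle and 10.45, 9.78 and 7.93 under AREG. Its difference was -0.54 ± 0.43 (adjusted p = 0.795), and without AREG replicate 3 it was 0.19, on the other side of 0. Ccl7 also turned, to 0.24, without that array.

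Ccl6 had log2 intensities of 10.09, 10.30 and 10.54 in PBS muscle and 10.42, 9.82 and 9.25 under AREG, a difference of -0.48 ± 0.24 (limma, adjusted p = 0.658). Ccl9 had 9.26, 9.14 and 9.67 in PBS muscle and 9.27, 8.89 and 8.37 under AREG. For both genes AREG replicate 3 was the lowest array and AREG replicate 1 lay within the range of the PBS group. Ccl3 had 8.65, 7.50 and 9.33 in PBS muscle and 8.31, 8.17 and 7.34 under AREG (-0.55 ± 0.37, adjusted p = 0.762). Its PBS arrays alone spanned more than the difference between the groups. Ccl4 had 6.14, 5.88 and 6.15 in PBS muscle and 6.21, 6.11 and 5.97 under AREG, the only member with an estimate above 0 (0.04 ± 0.12, adjusted p = 0.955).

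The receptors overlapped likewise. Ccr1 had log2 intensities of 5.66, 5.32 and 5.69 in PBS muscle and 5.63, 5.17 and 5.41 under AREG (-0.15 ± 0.15, adjusted p = 0.838). Ccr2 had 8.99, 9.02 and 9.86 in PBS muscle and 9.41, 9.02 and 7.88 under AREG (-0.52 ± 0.34, adjusted p = 0.758). In the AREG group of day 8, replicate 1 was the highest array for all 9 members and replicate 3 the lowest for 8, the exception being Ccr1, for which replicate 2 was lowest. The median SD of the members in that group was 0.50, against 0.14 over all genes. In the other 3 groups it was 0.19 to 0.28, against 0.12 to 0.18 over all genes.

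Whether AREG acted differently in the 2 settings was tested as the difference of the AREG effects, day 8 minus day 4. No member and none of the 19752 genes passed with limma (0%), with 1160 genes (5.87%) at an unadjusted p under 0.05. All 9 members had an estimate above 0, a smaller fall at day 8, as did 47.2% of all genes. The day 4 and day 8 effects stood at -0.80 and -0.28 for Ccl2, at -0.88 and -0.03 for Ccl7 and at -0.85 and -0.15 for Ccr1. The difference of the effects had its smallest unadjusted p in Ccr1 (0.69 ± 0.22, unadjusted p = 0.00579, adjusted p = 0.630). At an unadjusted p under 0.05 it also counted for Ccl7 (0.85 ± 0.32), Ccl3 (1.12 ± 0.52) and Ccl6 (0.72 ± 0.33). The calls at day 4 and their absence at day 8 therefore do not show that the effects differed.

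The mean of both AREG effects lowered 5 of the 9 members, against 2.99% of all genes called lower and 3.41% in either direction. They were Ccl3 (-1.11 ± 0.26; limma, adjusted p = 0.0337), Ccl6 (-0.84 ± 0.17, adjusted p = 0.0199), Ccl9 (-0.77 ± 0.14, adjusted p = 0.0187), Ccl2 (-0.54 ± 0.14, adjusted p = 0.0486) and Ccr1 (-0.50 ± 0.11, adjusted p = 0.0244). Ccl8 (-0.94 ± 0.31), Ccr2 (-0.73 ± 0.24), Ccl7 (-0.45 ± 0.16) and Ccl4 (-0.02 ± 0.08) did not pass. This mean is made from the same arrays as the 2 effects above. With the replicate block Ccl2 was lost (adjusted p = 0.0530), while 1104 genes were called in place of 673. The count was 0 without AREG replicate 1 of day 4 or without PBS replicate 3 of day 8, and 1 without PBS replicate 2 of day 4. It was 2 without AREG replicate 3 of day 4 or PBS replicate 1 of day 8. It was 3 without AREG replicate 2 or PBS replicate 3 of day 4, or without AREG replicate 2 or 3 of day 8, 4 without PBS replicate 1 of day 4 or PBS replicate 2 of day 8, and 8 without AREG replicate 1 of day 8.

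Between the days, 1 member passed the test in vehicle-treated muscle. Ccl8 rose from 8.13 ± 0.28 (SD, n = 3) at day 4 to 9.92 ± 0.34 at day 8, a difference of 1.79 ± 0.43 (SE) or 3.45-fold (limma, adjusted p = 0.0415). Of all genes 1.19% were called higher and 2.34% in either direction. The Ccl8 arrays of day 8, between 9.55 and 10.21, all lay above those of day 4, between 7.93 and 8.46. The call held in 7 of 21 alternatives, while the estimate lay between 1.63 and 1.97 in all of them. It was lost on leaving out any 1 of the day 4 arrays, any 1 of the day 8 PBS arrays or AREG replicate 2 of day 8, with an adjusted p of at most 0.157, and under 4 other settings given with the processing choices.

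The other members moved less in PBS muscle. Ccl6 (0.46 ± 0.24, adjusted p = 0.432) and Ccr2 (0.47 ± 0.34, adjusted p = 0.600) were higher at day 8 on every array without passing the test. With Ccl8 they made 3 members whose day 8 arrays all lay above those of day 4, against 9.17% of all genes. Ccr1 went the other way: its day 8 arrays all lay below those of day 4 (-0.43 ± 0.15, adjusted p = 0.210), as for 14.2% of all genes. Ccl3 (-0.73 ± 0.37) also had a negative estimate, with overlapping arrays, while Ccl2 (0.12 ± 0.20), Ccl7 (0.25 ± 0.23), Ccl9 (0.20 ± 0.20) and Ccl4 (0.01 ± 0.12) lay near 0.

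In AREG-treated muscle 3 members were higher at day 8 than at day 4: Ccl8 (2.59 ± 0.43, 6.04-fold; limma, adjusted p = 0.00805), Ccl6 (1.18 ± 0.24, 2.27-fold, adjusted p = 0.0272) and Ccl7 (1.10 ± 0.23, 2.14-fold, adjusted p = 0.0335). Of all genes 0.527% were called higher and 0.719% in either direction. All 9 estimates were above 0, against 34.8% of all genes. This comparison shares the AREG arrays of day 4 with the first one, in which they were low, so a low value there enters both. Besides the 3 called genes, Ccl2 (0.64 ± 0.20, adjusted p = 0.215) and Ccl9 (0.71 ± 0.20, adjusted p = 0.173) had day 8 arrays that all lay above those of day 4, which makes 5 members against 4.2% of all genes. Ccr2 (0.89 ± 0.34), Ccl3 (0.39 ± 0.37), Ccr1 (0.26 ± 0.15) and Ccl4 (0.14 ± 0.12) overlapped. With the replicate block Ccl7 was lost (adjusted p = 0.0562). The fit of the 6 AREG arrays alone called none of the 3, with adjusted p-values of 0.0592 for Ccl8, 0.0875 for Ccl7 and 0.126 for Ccl6. The count was 0 without AREG replicate 1 of day 4, 1 without AREG replicate 3 of day 4 or AREG replicate 1 or 2 of day 8, and 2 without AREG replicate 2 or PBS replicate 2 of day 4 or PBS replicate 1 of day 8. It was 6 without AREG replicate 3 of day 8.

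**Figure D3:**
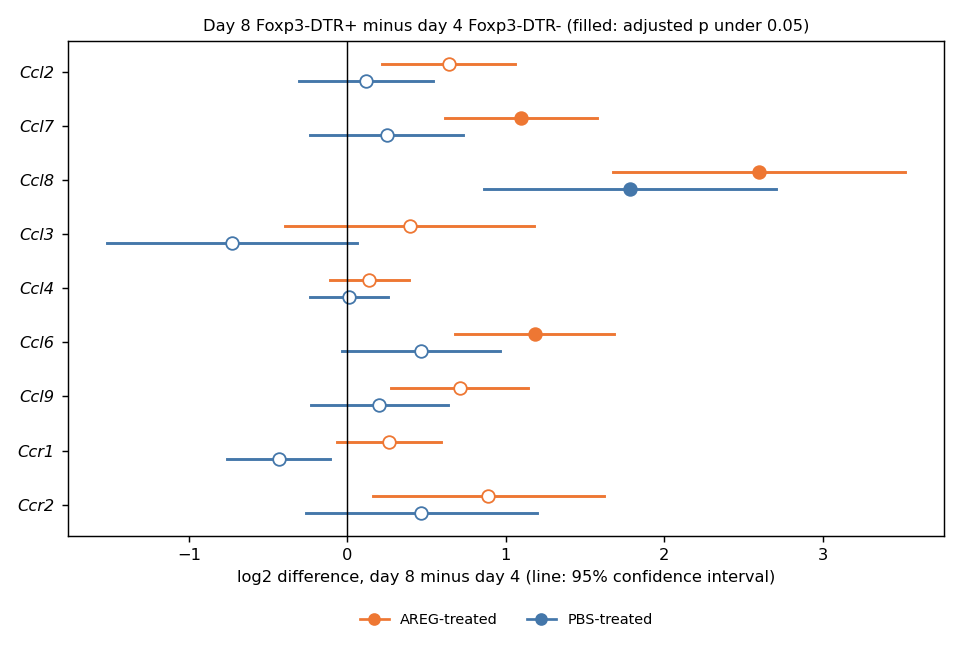
Log2 difference day 8 Foxp3-DTR+ minus day 4 Foxp3-DTR- (horizontal axis) of the 9 members in PBS-treated and in AREG-treated muscle, with 95% intervals and filled points where the adjusted p is under 0.05. Ccl8 is filled in both treatments, at 1.79 and 2.59, and Ccl6 and Ccl7 under AREG only; Ccl3 and Ccr1 are below 0 in PBS and above 0 in AREG muscle.

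Over the 4 groups, the mean of each of the 9 members was lowest in AREG-treated muscle of day 4. It was highest in PBS muscle of day 8 for 6 members, in PBS muscle of day 4 for Ccl3 and Ccr1 and in AREG muscle of day 8 for Ccl4. For Ccl8 the order was AREG day 4 (6.79 ± 0.35), PBS day 4 (8.13 ± 0.28), AREG day 8 (9.38 ± 1.31) and PBS day 8 (9.92 ± 0.34). AREG muscle of day 8 overlapped both PBS groups. For Ccl3 it was AREG day 4 (7.55 ± 0.32), AREG day 8 (7.94 ± 0.52), PBS day 8 (8.49 ± 0.93) and PBS day 4 (9.22 ± 0.46), and each neighbour in that order overlapped the next. For Ccr2 it was AREG day 4 (7.88 ± 0.58), AREG day 8 (8.77 ± 0.79), PBS day 4 (8.82 ± 0.13) and PBS day 8 (9.29 ± 0.49). The PBS groups did not overlap there, while AREG muscle of day 8 overlapped each of the other groups.

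Across the 12 arrays most members varied together. The correlation of a member with the mean of the other 8 was 0.96 for Ccl9, 0.95 for Ccl6, 0.94 for Ccl2, 0.93 for Ccl7 and 0.90 for Ccr2, and lower for Ccl8 (0.77), Ccl3 (0.61), Ccr1 (0.60) and Ccl4 (0.59). These are descriptions over 12 arrays that share 4 groups and have no p. The closest pair was Ccl6 and Ccl9 (r = 0.94), the genes whose promoters are printed above, and it stood at 0.80 after the group means were removed. Ccl2 and Ccl7, also neighbours, followed at 0.93, and were the closest pair, at 0.92, after the group means were removed. By that measure Ccl6 was also closer to Ccr2 (0.90) and to Ccl8 (0.87) than to Ccl9. Ccl8 and Ccr1 were the least alike (r = 0.24).

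Outside the list, the genes most like the mean profile of the members were Rassf4 (r = 0.98), Csf2rb (0.97), Pirb (0.97), Hcls1 (0.96), Fam111a (0.96) and Dock2 (0.96), by Pearson correlation over the 12 arrays and chosen for that likeness. Csf2rb is the shared signalling chain of the receptors for GM-CSF, interleukin 3 and interleukin 5, Pirb an inhibitory receptor of myeloid and B cells, Hcls1 an actin regulator of blood cells and Dock2 an activator of Rac in migrating leukocytes. Their differences AREG minus PBS at day 4, given as a description, lay between -0.61 for Hcls1 and -0.92 for Pirb.

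The other genes of the CC family, listed by name, gave no call at day 4. Of 11 other ligands measured, 0 of 11 passed with limma at day 4, 1 of them at an unadjusted p under 0.05, and their median was 0.08. That gene was Ccl11, the eosinophil-attracting eotaxin (0.46 ± 0.20, adjusted p = 0.251). Ccl1 (0.20 ± 0.13) and Ccl24 (0.17 ± 0.13) followed by p. Of 11 other receptors, 0 passed and 0 had an unadjusted p under 0.05, with a median of 0.11, and the lowest p belonged to Ccr9 (-0.38 ± 0.19), Ccrl2 (0.29 ± 0.17) and Ccr3 (-0.24 ± 0.15). Ccl21a and Ccl27a had no cluster of their own and were not analysed here. Whether the members differed from these genes as a group was not tested.

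Between the days, 5 of the 11 other ligands were higher in PBS muscle at day 8. Ccl5, which attracts T cells and monocytes, rose by 2.83 ± 0.37 (limma, adjusted p = 0.000555), from an intensity of 332 to 368 on the arrays of day 4 to 1721 to 3763 on those of day 8. Ccl17 and Ccl22, ligands of Ccr4, rose by 1.78 ± 0.29 (adjusted p = 0.00301) and 0.81 ± 0.18 (adjusted p = 0.0287). Ccl11 rose by 1.38 ± 0.20 (adjusted p = 0.00144) and Ccl19, a ligand of Ccr7, by 0.52 ± 0.12 (adjusted p = 0.0393). Under AREG, Ccl5 (2.28 ± 0.37, adjusted p = 0.00646) and Ccl17 (1.58 ± 0.29, adjusted p = 0.0136) passed. None of the 11 other receptors passed in either comparison between days, in each of which 1 had an unadjusted p under 0.05.

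Markers of T and NK cells moved with these ligands. Of 15 measured, 10 were higher in PBS muscle at day 8 than at day 4, among them Cd3g (2.55 ± 0.32) and Nkg7 (3.23 ± 0.32). Their summed intensity went from between 1100 and 1150 to between 2793 and 4291, and none was at 0. The part of these cells in the Ccl5 and Ccl8 differences was not tested. At day 4, 0 of the 15 passed for AREG against PBS, with a median of -0.02 and 1 gene at an unadjusted p under 0.05. By p the first were Il2ra, the alpha chain of the interleukin 2 receptor (0.35 ± 0.11, adjusted p = 0.106), Cd8a (0.31 ± 0.25) and the transcription factor Eomes (0.19 ± 0.19). At day 8 none of the 15 passed either, but 13 had an estimate below 0 for AREG against PBS and 4 an unadjusted p under 0.05. Their median there was -0.38, beside -0.48 for the chemokine genes, and the part of these cells in the day 8 values was not tested.

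Monocyte and macrophage markers moved with the chemokines under AREG. Of the 20 listed, Ly6c1 and Ly6c2 had no cluster of their own, so the list and its mean leave them out. At day 4, 12 of the 18 measured were called lower and 17 had an estimate below 0, with a median of -0.96. Lgals3, the lectin galectin-3 of activated macrophages, fell by 1.59 ± 0.29 (limma, adjusted p = 0.0198), the scavenger receptor Msr1 by 1.23 ± 0.24 (adjusted p = 0.0218) and the coagulation factor F13a1 by 0.67 ± 0.12 (adjusted p = 0.0198). The summed intensity of the markers lay between 14706 and 18749 on the PBS arrays and between 6786 and 9349 on the AREG arrays of day 4. At day 8 it lay between 13001 and 17522 under PBS and between 6103 and 14994 under AREG, with 0 of 18 called (limma, 5 at an unadjusted p under 0.05). No marker was at 0, and the part of these cells in the chemokine differences was not tested. In whole muscle, fewer cells of a type and less RNA per cell cannot be told apart.

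The mean log2 level of the 18 markers was 8.90 ± 0.21 (SD, n = 3) in PBS and 7.96 ± 0.22 in AREG muscle at day 4, and 8.75 ± 0.22 and 8.36 ± 0.49 at day 8. The replicates of AREG muscle at day 8 stood at 8.79, 8.47 and 7.83, so the array that was lowest for 8 chemokine genes was lowest for the marker mean as well. Each member was also expressed relative to that mean, array by array, a step chosen after the values had been seen and given with no test. At day 4 this left differences AREG minus PBS of -0.01 for Ccr2, 0.06 for Ccl7, 0.09 for Ccr1, -0.09 for Ccl9, 0.14 for Ccl2 and -0.26 for Ccl6, with overlapping arrays. Ccl3 went from -1.67 to -0.74, with overlap, and Ccl8 from -1.34 to -0.41, without overlap. The step adds the fall of the marker mean to every member alike. Ccl4, which is dim and hardly differed before the step, went from -0.09 to 0.85, with the AREG arrays higher and without overlap. That value carries the fall of the marker mean and has no reading of its own. Ccr1 is dim as well.

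The same subtraction between the days in PBS muscle left Ccl8 at 1.93 higher at day 8, Ccl6 and Ccr2 each at 0.61 and Ccl2 at 0.26, all without overlap. The other members overlapped. In PBS muscle the marker mean was 8.90 at day 4 and 8.75 at day 8, but it averages markers that went in opposite directions. Of the 18, 13 had an estimate below 0 and 5 above, from -0.83 for Lgals3 to 1.04 for Plac8. The day 8 arrays of 4 markers all lay below those of day 4 and those of 2, Ptprc (CD45) among them (0.78 ± 0.31), all above. F13a1 alone was called, lower at day 8 (-0.72 ± 0.12, adjusted p = 0.00448). The subtracted values between days therefore depend on which markers make up the mean.

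**Figure D4:**
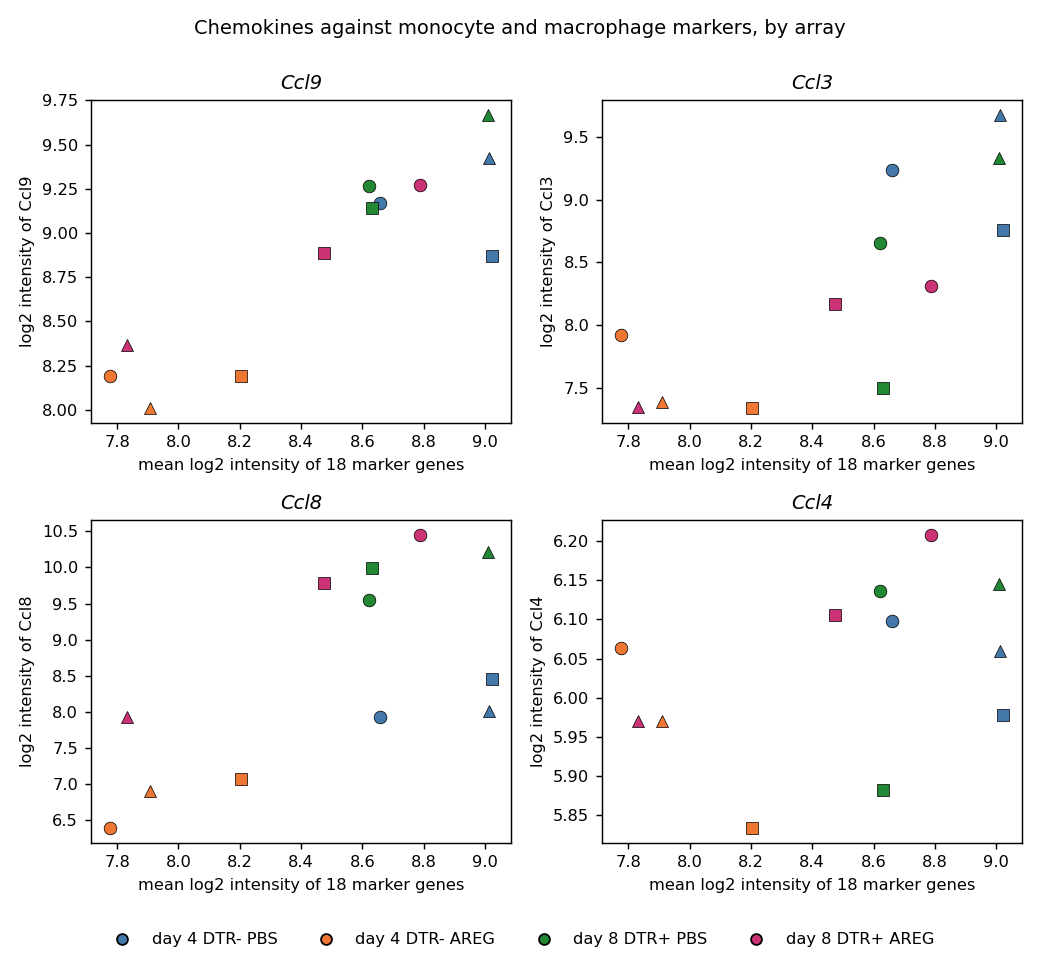
Mean log2 intensity of the 18 monocyte and macrophage markers (horizontal axis) against the log2 intensity of Ccl9, Ccl3, Ccl8 and Ccl4 (vertical axes), with 1 point per array, coloured by group; circles, squares and triangles are replicates 1, 2 and 3. The AREG arrays of day 4 lie at marker means between 7.78 and 8.20, AREG replicate 3 of day 8 lies among them at 7.83, and Ccl8 is higher at day 8 than at day 4 in PBS muscle, where the marker means are 8.75 and 8.90.

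Among markers of other cell types, only the myoblast list had calls for AREG at day 4. None of 12 neutrophil genes passed (4 at an unadjusted p under 0.05, median -0.14), the lowest p belonging to the collagenase Mmp8 (-0.50 ± 0.13, adjusted p = 0.0546) and the G-CSF receptor Csf3r (-0.68 ± 0.18, adjusted p = 0.0547), followed by Retnlg (-0.40 ± 0.17). None of 10 endothelial genes (3 at an unadjusted p under 0.05, median 0.29), 9 fibroblast and fibro-adipogenic genes (3, median -0.37) or 10 fibre genes (1, median 0.15) passed. The first endothelial genes by p were the cadherin Cdh5 (0.37 ± 0.14), Emcn (0.36 ± 0.15) and the transcription factor Erg (0.30 ± 0.13). Those of the fibroblast list were the collagens Col3a1 (-0.86 ± 0.34) and Col1a1 (-0.69 ± 0.29) and the receptor Pdgfra (-0.34 ± 0.15). Those of the fibre list were the myosin Myh2 (0.35 ± 0.12), the troponin Tnnc2 (0.20 ± 0.10) and parvalbumin, Pvalb (0.21 ± 0.11). Of 10 myoblast genes 3 were called lower, 9 had an estimate below 0 and 7 an unadjusted p under 0.05 (median -0.57). Chrng, the fetal acetylcholine receptor subunit, was called lower by 1.28 ± 0.22. The other calls were the fusion protein gene Mymk (lower by 1.31 ± 0.23) and the myogenic factor Myog (by 1.10 ± 0.21). The part of each of these cell types in the chemokine differences was not tested.

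Downstream of the receptors, 25 of 28 listed signalling genes were measured. At day 4, 24 of the 25 had an estimate below 0 (median -0.38) and 16 an unadjusted p under 0.05, but none was called lower and 1, Jak2, was called higher (0.63 ± 0.12; limma, adjusted p = 0.0218). Jak2 is a kinase of many cytokine receptors and had intensities of 485, 482 and 587 in PBS and 744, 898 and 765 in AREG muscle. Gnai2, the inhibitory G protein subunit through which chemokine receptors act, came nearest to a call among the lower genes (-0.52 ± 0.14, adjusted p = 0.0550). Rgs1, which ends the signal of such G proteins, had a larger difference and a larger spread (-1.17 ± 0.33, adjusted p = 0.0683). Over both settings the mean AREG effect lowered 4 of the 25: Gnai2 (-0.37 ± 0.10), Gnb1 (-0.40 ± 0.09), Rgs1 (-0.96 ± 0.23) and Rac2 (-0.69 ± 0.17).

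A list of 20 genes of the inflammatory cytokine, Toll-like receptor and NF-kB pathways, through which these chemokines can be induced, had 18 measured. It also holds Nfkbia and Tnfaip3, which restrain NF-kB (-0.13 ± 0.13 and -0.31 ± 0.16 at day 4, both not called). At day 4, 17 of the 18 had an estimate below 0, with a median of -0.22, and 1 was called lower: Myd88, the adaptor of Toll-like and interleukin 1 receptors (-0.71 ± 0.18; limma, adjusted p = 0.0435). Its intensities were 331, 353 and 386 in PBS and 208, 189 and 259 in AREG muscle, without overlap. Tnfrsf1b, a receptor of tumour necrosis factor (-0.87 ± 0.23, adjusted p = 0.0537), and Tlr2, a receptor of bacterial lipoproteins (-0.50 ± 0.16, adjusted p = 0.117), lay below it by p. Of the cytokines, Il1b stood close to Tlr2, at -0.56 ± 0.19 (adjusted p = 0.117), and Tnf was at -0.15 ± 0.19 (adjusted p = 0.799).

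**Figure D5:**
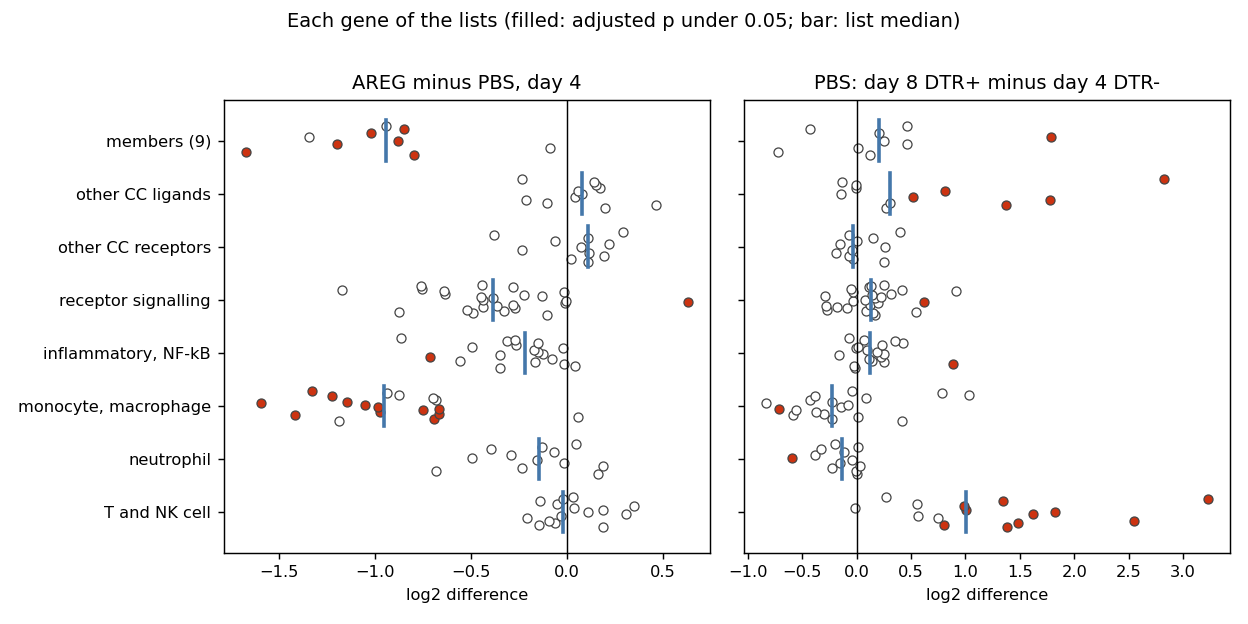
Log2 difference (horizontal axes) of every measured gene of the members and of 7 comparison lists (vertical axis), for AREG minus PBS at day 4 on the left and for day 8 minus day 4 in PBS muscle on the right. Points are genes, filled where the adjusted p is under 0.05, and bars are medians; on the left the members (-0.94) and the monocyte and macrophage markers (-0.96) have the lowest medians, and on the right the T and NK cell markers have the highest.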

How the data were processed

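The authors made the values with RMA in Affymetrix Power Tools, per the submitters' processing notes; RMA corrects background, equalises the arrays and summarises probes. Versions and annotation (not given in the sources used here) stay unnamed. Deposited values were linear intensities from 4.65 to 21512.5 of 24922 clusters. These deposited intensities were converted to log2, without a pseudocount or any filter. Symbols came from the array's gene table (21425 clusters with 1 symbol, 1399 with several, 2098 without entry), and 21347 Entrez numbers matched RefSeq (GRCm38.p6, for names only). A gene with several clusters took the brightest, which left 19752 genes. RMA draws weak signals together, and precision is limited by 3 arrays per group.

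Differences were estimated by limma 3.58.1 under R 4.3.3 (lmFit, eBayes, 4 group means, 8 residual and 7.1 prior degrees of freedom), two-sided, with Benjamini-Hochberg adjustment over all genes. With 3 arrays a group, exact permutation tests cannot go below 0.1 and were not used. The members and gene lists were chosen with earlier results of these data known. All members were named, with the 3 genes of smallest p at day 4 of each list, every other CC gene called in any comparison and the 6 genes most like the members. Cd3g, Nkg7, Il1b, Tnf, Gnb1, Rac2 and Ccl12 were added after their values were seen. Ptprc, Plac8, Nfkbia, Tnfaip3, Foxp3, Ckm and Acta1 were also named outside these rules. Residuals of same-numbered AREG and PBS arrays correlated at 0.558, 0.201 and 0.511 at day 4. At day 8 they correlated at -0.198, 0.123 and -0.003. AREG replicate 2 and PBS replicate 3 of day 4, whose numbers differ, correlated at 0.270, above the 0.201 of the replicate 2 pair. No label states a pairing, and these values cannot settle whether the number marks pairs. The main fit treated the arrays as unpaired. Alternatives were the replicate block, fits of the compared groups alone, array quality weights, the trend and robust options of eBayes, a median filter, quantile normalisation, median centring, a pseudocount of 32, cluster means and leaving out each array. The limma fit was tested on simulated arrays with known changes, for AREG against PBS at day 4 only. Promoters were aligned with Biopython 1.88 (match 1, mismatch -1, gap opening -3, gap extension -1).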

Additional observations from a re-analysis of the deposited data

How the results depend on the processing

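Over 54 member results, 1104 values were recomputed under the alternatives: 950 kept their direction and side of the threshold, 114 were no longer called, 25 became called and 15 changed direction. The replicate block gave 914 genes at day 4, 1104 for the mean effect and 0 at day 8, and changed no member's call other than those of Ccl2 and Ccl7 given above. Fits of the compared groups alone gave 938 genes at day 4, 0 at day 8, 759 between PBS groups and 86 between AREG groups, with 0 members called there. The trend and robust options, the median filter (9876 genes, without Ccl4 and Ccr1), the repeated quantile normalisation and the pseudocount of 32 each called 0 members between the PBS groups and 0 genes at day 8. Centring on medians and cluster means also called 0 genes at day 8. Array quality weights raised the counts to 5305 at day 4, 1192 at day 8, 1649 between PBS groups, 6676 between AREG groups (7 members), 4902 for the mean (8 members) and 2232 for the difference of effects (5 members: Ccl3, Ccl6, Ccl7, Ccl8 and Ccr1), with weights from 0.167 for AREG replicate 1 of day 4 to 7.43 for AREG replicate 2 of day 8. Quantile normalisation gave 877 genes at day 4 and raised the share of higher calls from 27.2% to 41.4%, and for the mean effect from 12.2% to 27.8%. Centring gave 444 genes for the mean. The pseudocount gave 358 genes and 3 members at day 4, 91 genes and 0 members between AREG groups and 3 members for the mean. The cause of these shifts was not tested.

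Leaving out each array gave 9 to 1336 genes and 0 to 8 members at day 4, 0 to 1 genes and 0 members at day 8, 209 to 719 genes and 0 to 1 members between PBS groups, and 79 to 458 genes and 0 to 6 members between AREG groups. For the mean effect it gave 34 to 1488 genes and 0 to 8 members, and for the difference of effects 0 of both. Some estimates changed direction. Ccl7 at day 8 became 0.057 with weights, 0.047 after quantile normalisation and 0.013 after centring, and the mean effect on Ccl4 became 0.0032 after centring. On leaving out each array, the day 8 effect ranged from -0.24 to 0.24 for Ccl7, from -1.07 to 0.19 for Ccl8 and from -0.046 to 0.103 for Ccl4, and the mean effect on Ccl4 from -0.068 to 0.0067. The day difference in PBS muscle ranged from -0.021 to 0.258 for Ccl2 and from -0.036 to 0.096 for Ccl4. Scaling moved the median of all genes by less than 0.1. Dimness limits Ccl4 and Ccr1, which lie below the median level. With 3 arrays per group and 1 setting per day, the calls near the threshold (Ccl2, Ccl7 and, between days, Ccl8) rest on few arrays.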

Other observations

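Ccl12, a further ligand of Ccr2 that lies between Ccl11 and Ccl8 on chromosome 11, was measured but was no member. Its log2 intensity was 5.55 ± 0.09 (SD, n = 3) in PBS and 5.45 ± 0.20 in AREG muscle at day 4, with overlapping arrays and a difference of -0.10 ± 0.13 (SE; limma, adjusted p = 0.792). At day 8 it was 5.86 ± 0.11 and 5.78 ± 0.16, and its day 8 arrays lay above those of day 4 in both treatments without passing the test (0.30 ± 0.13, adjusted p = 0.305, in PBS muscle). Ccl12 was named for its place in the gene cluster after its values were seen.

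Jak2 had the opposite sign to the other signalling genes at day 4. At day 8 its estimate was below 0, and its AREG arrays all lay below its PBS arrays (-0.24 ± 0.12; limma, adjusted p = 0.687). The difference of the AREG effects on Jak2 was -0.87 ± 0.17, with an unadjusted p of 0.000145 and an adjusted p of 0.477. In PBS muscle Jak2 was higher at day 8 than at day 4 (0.61 ± 0.12, adjusted p = 0.0128).

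Ccl5 had no call for AREG against PBS at day 8 (-0.78 ± 0.37, adjusted p = 0.656), where AREG replicate 3 stood at an intensity of 634 beside 2383 and 1917 in the other AREG arrays. The same array was the lowest of its group for 8 of the 9 members.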
